A study of Mus musculus with 2 samples.

Results

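The genes described here encode the proteasome, its interferon-inducible variant and its activators. They were the 41 mouse genes named Psma1 to Psma7, Psmb1 to Psmb10, Psmc1 to Psmc6, Psmd1 to Psmd14 and Psme1 to Psme4, matched by gene symbol among 55640 gene records, of which 55487 carried a symbol. RNA sequencing compared LPC-HRas cells, a mouse liver tumour line, infected with lentivirus carrying a hairpin against Etv4, an ETS-family transcription factor (shETV4), with the same line infected with lentivirus carrying the control hairpin shRFP. Both groups are thus infected and both carry a hairpin, and the labels name 1 hairpin per group. There was 1 library per group, 2 in all. No difference given here has a replicate check, no p-value could be computed, and all statements describe these libraries.

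The proteasome is the barrel-shaped protease that degrades ubiquitin-tagged proteins. Its core particle is built of stacked rings: outer alpha rings that gate the entrance, and inner beta rings in which Psmb5, Psmb6 and Psmb7 carry the constitutive protease sites. The regulatory particle caps the core, with an ATPase base that unfolds substrates and a lid that removes ubiquitin. Interferon induces Psmb8, Psmb9 and Psmb10, which are built into new cores in place of Psmb5, Psmb6 and Psmb7 to form the immunoproteasome, and also Psme1 and Psme2, which form the PA28 activator. These forms are known for altering the peptides supplied to MHC class I molecules.

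The hairpin's target Etv4 was at 16.2 TPM with shETV4 and 73.2 TPM with shRFP, a difference of -2.11 on the log2(TPM + 1) scale. TPM is the deposited transcript abundance, per transcript length and scaled to a fixed library total, so it carries no read depth. The deposited values totalled 999870.3 with shETV4 and 999999.77 with shRFP, and 12281 named genes reached 1 TPM with shETV4 and 12456 with shRFP. None of 7 hepatocyte markers reached 1 TPM and albumin was listed at 0 in both libraries, so the labelled hepatocellular origin was not visible in these markers. Of 5 biliary and progenitor markers, Krt19, Sox9 and Spp1 reached 1 TPM.

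All 41 genes exceeded 1 TPM in both libraries. The 5 interferon-inducible genes had the 5 highest differences of the complex. Psmb8, Psmb9, Psmb10, Psme1 and Psme2 together summed to 1074 TPM with shETV4 and 596 TPM with shRFP. The constitutive catalytic genes Psmb5, Psmb6 and Psmb7 summed to 1451 TPM with shETV4 and 1391 TPM with shRFP. The remaining 33 genes summed to 6442 TPM with shETV4 and 7428 TPM with shRFP. Over the whole set the sum was 8967 TPM with shETV4 and 9415 TPM with shRFP, or 0.897% of the total with shETV4 and 0.941% with shRFP. In bulk RNA, fewer cells of a kind and less RNA per cell cannot be told apart.

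**Figure D1:**
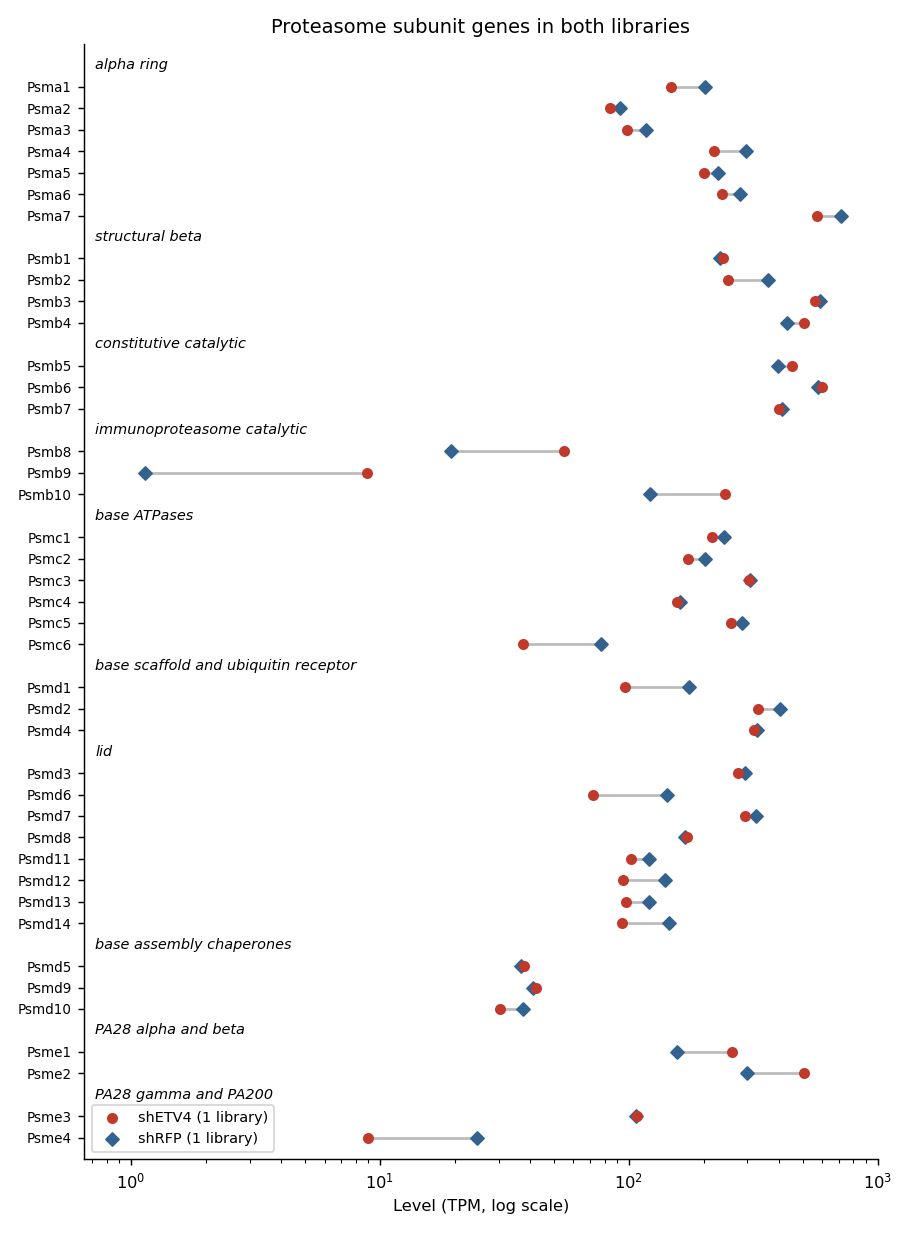
Level of each of the 41 genes in TPM on a log axis, with the shETV4 library as circles and the shRFP library as diamonds, joined by a line and grouped by the subunit's place in the complex. Psmb8, Psmb9, Psmb10, Psme1 and Psme2 lie to the right with shETV4, while Psmc6, Psmd1, Psmd6 and Psme4 lie visibly to the left.

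Differences are given on the log2(TPM + 1) scale, with the shRFP value subtracted from the shETV4 value, and a call of higher or lower needed 2-fold on that scale. Ratios are plain ratios of the TPM. Of the 41 genes, 2 were called higher (Psmb8 and Psmb9) and 2 lower (Psmc6 and Psme4). That is 4.88% of the 41 in each direction. The background over the 12968 named genes reaching 1 TPM with either hairpin was 3.39% for higher and 7.06% for lower calls, and over the 11570 protein-coding ones 2.16% and 6.37%. The counts of called proteasome genes are near these shares. The differences of the 5 inducible genes ran from 0.73 to 2.20 with a median of 0.99. The 3 constitutive catalytic genes ran from -0.05 to 0.19 with a median of 0.04, and the other 33 from -1.36 to 0.23 with a median of -0.23. The ranges of the inducible genes and of the other 36 did not overlap. With the trend over GC content removed the gap nearly closed, with Psme1 the lowest inducible gene at 0.69 and Psma2 the highest of the others at 0.66. The median over all 12968 genes was -0.10. At a lower threshold of 1.5-fold all 5 inducible genes were called higher, against 8.61% of all genes, and none of the other 36 without GC adjustment. At that threshold 5 of the 33 remaining genes were called lower, against 20.0% of all genes.

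**Figure D2:**
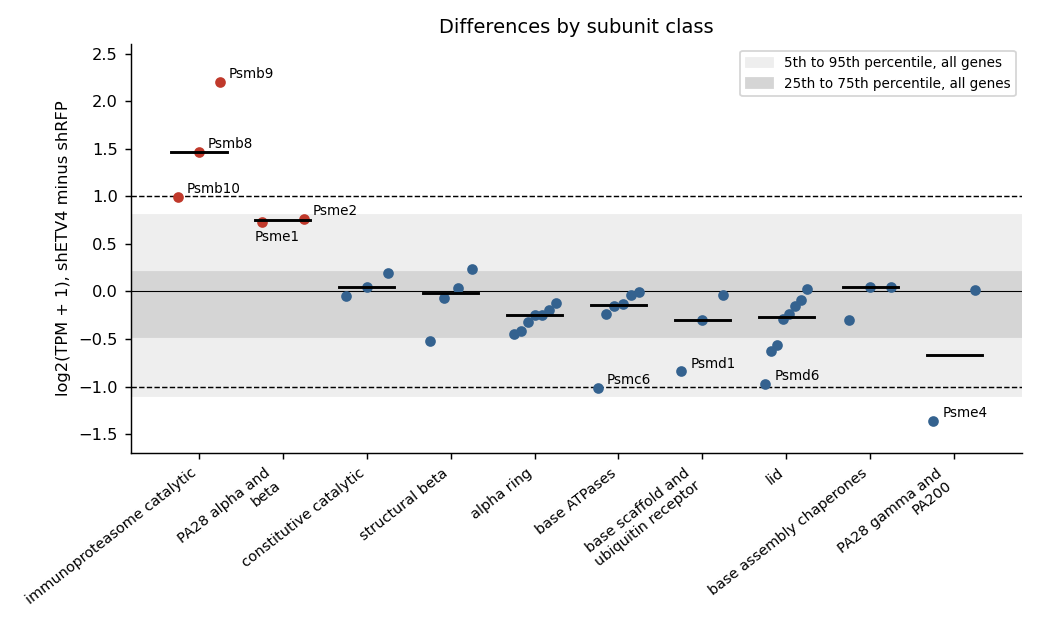
Difference in log2(TPM + 1), shETV4 minus shRFP, for each of the 41 genes by subunit class, with black bars at class medians, dashed lines at 2-fold and grey bands for all 12968 genes. The immunoproteasome and PA28 alpha and beta genes lie between 0.73 and 2.20, and all others between -1.36 and 0.23.

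Psmb9 (ENSMUSG00000096727), which encodes the immunoproteasome subunit that takes the place of Psmb6, was at 8.85 TPM in the shETV4 library and 1.14 TPM in the shRFP library. The ratio was 7.76 and the difference 2.20, rank 82 from the highest among the 12968 genes. The control level lay close to the 1 TPM floor, so this ratio rests on a low value. Psmb8 (ENSMUSG00000024338), the counterpart of Psmb5, was at 55.2 TPM with shETV4 and 19.3 TPM with shRFP, a ratio of 2.86 and rank 187. Psmb10 (ENSMUSG00000031897), the counterpart of Psmb7, was the most abundant of the inducible catalytic genes in both libraries. It was at 243.65 TPM with shETV4 and 121.86 TPM with shRFP, a ratio of 1.999 and a difference of 0.99, just inside the 2-fold threshold. It passed that threshold, at 1.06 and 1.12, when the libraries were rescaled to a median ratio of 1 or to a trimmed mean of log ratios of 0. Psmb10 stayed inside it with a pseudocount of 5 (0.97) and after adjustment for GC content (0.82).

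The levels of these inducible genes differed among themselves within each library. Psmb10 stood at 4.41 times the level of Psmb8 with shETV4 and 6.32 times with shRFP. Psmb9 stood at 0.16 times the level of Psmb8 with shETV4 and 0.059 times with shRFP. The order Psmb10, Psmb8, Psmb9 was the same in both libraries.

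Immune cells express immunoproteasome genes without stimulation, so 21 immune cell markers were read beside these values. Of these, 3 reached 1 TPM (Cd14, Cd68 and Cd74), none was called, and the whole list summed to 30.6 TPM with shETV4 and 19.3 TPM with shRFP. Those 3 all had positive differences, with a median of 0.57: Cd14 was at 15.22 TPM with shETV4 and 8.68 TPM with shRFP, a ratio of 1.75, near those of Psme1 and Psme2 (1.67 and 1.70). Cd74 had a ratio of 1.51 and Cd68 of 1.96. Their part in the result was not tested. The defining leukocyte marker Ptprc was at 0.03 TPM with shETV4 and listed at 0 with shRFP, and Cd3e and Adgre1 were listed at 0 in both.

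The constitutive partners were all within 1.5-fold. Psmb5, which carries the chymotrypsin-like site, was at 454.82 TPM with shETV4 and 398.69 TPM with shRFP. Psmb6, the caspase-like subunit, was at 596.02 TPM with shETV4 and 578.72 TPM with shRFP. Psmb7, the trypsin-like subunit, was at 400.43 TPM with shETV4 and 413.15 TPM with shRFP. All 3 remained the major transcript of their pair in both libraries.

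Each inducible gene was then set against the constitutive gene it replaces, a ratio within a library that does not depend on how the libraries were scaled. Psmb8 made up 10.8% of the TPM of Psmb8 and Psmb5 together with shETV4 and 4.62% with shRFP. Psmb9 made up 1.46% of its pair with Psmb6 with shETV4 and 0.197% with shRFP. Psmb10 made up 37.8% of its pair with Psmb7 with shETV4 and 22.8% with shRFP. The inducible over constitutive ratio was thus 2.51 times as large with shETV4 for Psmb8, 7.54 times for Psmb9 and 2.06 times for Psmb10. Of these contrasts, that of Psmb10 depended most on base composition: Psmb10 has a GC content of 58.5% and Psmb7 of 44.7%, and with the trend over GC content removed their differences were 0.82 and 0.46. The adjusted differences were 1.42 for Psmb8 and 0.06 for Psmb5, and 2.11 for Psmb9 and -0.01 for Psmb6. Summed over the catalytic genes, the inducible share was 17.5% with shETV4 and 9.28% with shRFP. The total of each pair was 510.02 TPM with shETV4 and 417.98 TPM with shRFP for Psmb8 and Psmb5, and 604.87 TPM with shETV4 and 579.86 TPM with shRFP for Psmb9 and Psmb6. For Psmb10 and Psmb7 it was 644.08 TPM with shETV4 and 535.01 TPM with shRFP. These are shares of transcript; protein and assembled particles were not measured.

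**Figure D3:**
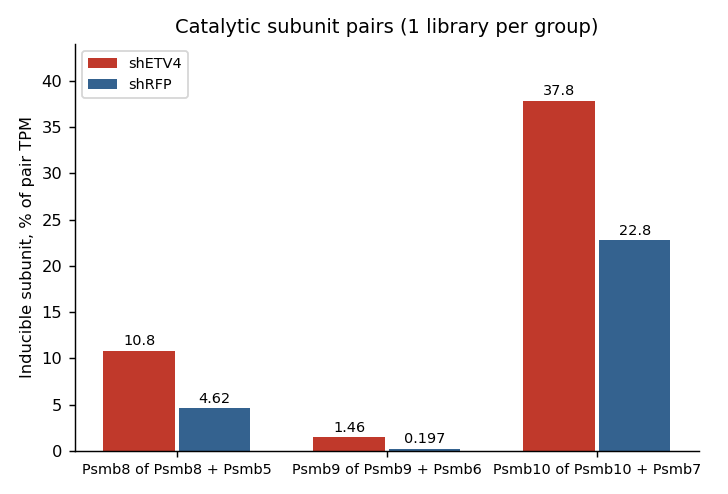
Share of the inducible gene in the summed TPM of each catalytic pair, in percent, with the shETV4 library left of the shRFP library and 1 library per bar. The share is larger with shETV4 in every pair, at 10.8% against 4.62%, 1.46% against 0.197% and 37.8% against 22.8%.

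The PA28 genes kept their proportion to each other. Psme1 (ENSMUSG00000022216), PA28 alpha, was at 260.08 TPM with shETV4 and 155.90 TPM with shRFP, a ratio of 1.67. Psme2 (ENSMUSG00000079197), PA28 beta, was at 506.04 TPM with shETV4 and 297.88 TPM with shRFP, a ratio of 1.70. Psme2 was 1.95 times the level of Psme1 with shETV4 and 1.91 times with shRFP. Both lay inside 2-fold, at ranks 762 and 714 from the highest. The other activators did not share this pattern in the unadjusted values. Psme3, the nuclear activator PA28 gamma, was at 107.98 TPM with shETV4 and 106.56 TPM with shRFP. That contrast depended in part on base composition. With the trend over GC content removed, Psme3 was at 0.43, against 0.69 for Psme1 and 0.85 for Psme2. Psme4, which encodes PA200, an activator best known from spermatogenesis and DNA repair, was at 9.01 TPM with shETV4 and 24.62 TPM with shRFP, a difference of -1.36. Psme1 and Psme2 therefore made up 86.8% of activator transcript with shETV4 and 77.6% with shRFP.

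The alpha ring genes form the gate of the core. All 7 were within 2-fold and below 0, where 7560 of all 12968 genes lay. They ran from -0.45 for Psma1 to -0.12 for Psma2, with a median of -0.25. That direction depended on base composition: with the trend of the difference over transcript GC content removed, 5 of the 7 lay above 0 and the median was 0.10. Psma7 was the most abundant gene of the set with shRFP, at 569.85 TPM with shETV4 and 711.83 TPM with shRFP. Psma1 was at 147.47 TPM with shETV4 and 201.78 TPM with shRFP. Psma4 was at 220.87 TPM with shETV4 and 295.73 TPM with shRFP. Psma5 and Psma6 were at 200.95 and 236.27 TPM with shETV4 and 229.38 and 279.78 TPM with shRFP.

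The value of Psma3 is uncertain because reads may have been split with a copy. The processed pseudogene Gm13835 (chromosome 6, 31141979 to 31142663, minus strand, GRCm38) matched the Psma3 transcript at 100% identity over 665 bases and was listed at 125.25 TPM with shETV4 and 156.58 TPM with shRFP. That is above Psma3 itself, listed at 98.84 TPM with shETV4 and 117.67 TPM with shRFP. The sum of both was 224.09 TPM with shETV4 and 274.25 TPM with shRFP, a difference of -0.29, close to the -0.25 of Psma3 alone. In all, 9 of the 41 genes had such copies elsewhere (at least 95% identity over 200 bases), 17 records in total. Apart from Gm13835 and A730017L22Rik, a copy of Psmd11 at 2.02 TPM with shETV4 and 2.36 TPM with shRFP, all stood below 1 TPM, among them Psme2b, 99.4% identical to Psme2, at 0.45 TPM with shETV4 and 0.20 TPM with shRFP.

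The structural beta genes Psmb1 to Psmb4 lay on both sides of 0, with a median of -0.02. Psmb4 had the most positive difference of them, 0.23, at 507.48 TPM with shETV4 and 432.06 TPM with shRFP. Psmb2 had the most negative, at 251.16 TPM with shETV4 and 361.83 TPM with shRFP, a difference of -0.52. Psmb1 and Psmb3 were at 239.67 and 561.46 TPM with shETV4 and 233.28 and 589.66 TPM with shRFP.

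Among the 6 base ATPases, which thread the unfolded substrate into the core, Psmc6 was the one called lower. Psmc6 (ENSMUSG00000021832; chromosome 14, 45329788 to 45349705, plus strand) was at 37.66 TPM with shETV4 and 77.13 TPM with shRFP, a ratio of 0.488. Its difference of -1.02 came inside 2-fold on both rescaled versions (-0.95 and -0.89), with a pseudocount of 5 (-0.95) and after adjustment for GC content (-0.20). The other 5 were within 1.5-fold, from Psmc2 at -0.23 to Psmc3, at 305.4 TPM with shETV4 and 306.41 TPM with shRFP. Psmc6 had the lowest level of the 6 in both libraries.

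The base scaffold gene Psmd1 was at 97.02 TPM with shETV4 and 174.14 TPM with shRFP, a difference of -0.84. Psmd2, the other scaffold, was at 329.46 TPM with shETV4 and 405.98 TPM with shRFP. The ubiquitin receptor Psmd4 was at 320.16 TPM with shETV4 and 327.39 TPM with shRFP. After adjustment for GC content Psmd1 was at -0.50, Psmd2 at -0.31 and Psmd4 at -0.14.

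The 8 lid genes had a median of -0.26, with 7 below 0, against 7560 of all 12968 genes, and none called. Psmd6 had the most negative difference, at 72.22 TPM with shETV4 and 142.59 TPM with shRFP, a difference of -0.97. Psmd14, the deubiquitinase that cuts ubiquitin chains from substrates, was at 94.38 TPM with shETV4 and 145.74 TPM with shRFP, a difference of -0.62. Psmd12 was at 94.53 TPM with shETV4 and 140.34 TPM with shRFP. Psmd14 changed sign with GC content taken into account (0.15), while Psmd6 stayed at -0.59. The others, Psmd3, Psmd7, Psmd8, Psmd11 and Psmd13, lay between -0.29 and 0.03.

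Psmd5, Psmd9 and Psmd10 encode chaperones that help assemble the base and leave the finished particle. They lay between 30.29 and 42.42 TPM with shETV4 and between 36.78 and 41.16 TPM with shRFP. Psmd5 and Psmd9 differed by 0.05 and 0.04. Psmd10 was at 30.29 TPM with shETV4 and 37.49 TPM with shRFP, a difference of -0.30. Adjusted for GC content, Psmd5 was at 0.37 and Psmd9 at 0.05, and Psmd10 changed sign, to 0.34.

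The members called lower were poor in GC. Across all 12947 genes with a GC value, the rank correlation of the difference with median transcript GC content was 0.52, across the 41 genes it was 0.63, and without the 5 inducible ones 0.55; genes within a library share its preparation and are not independent replicates. Psme4 had a GC content of 38.5% and Psmc6 of 40.96%. Both fell in the lowest of 10 equal bins of all genes by GC content, where the median was -0.74 and 29.1% of genes were called lower. Psmd6 and Psmd1, at 45.9% and 46.7%, fell in bin 3, where the median was -0.37 and 7.26% of genes were called lower. After adjustment the background was 3.99% for higher and 2.31% for lower calls. Among the proteasome genes, Psmb8 (1.42) and Psmb9 (2.11) were then still called higher and none was called lower, Psme4 being at -0.57. The median of the 33 remaining genes was -0.07 after adjustment, and that of the 5 inducible genes was 0.85. The inducible genes have a GC content of 50.9% to 58.5%, a range in which the medians of all genes lay between -0.02 and 0.17. The part of RNA quality or library preparation in the GC trend was not tested.

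**Figure D4:**
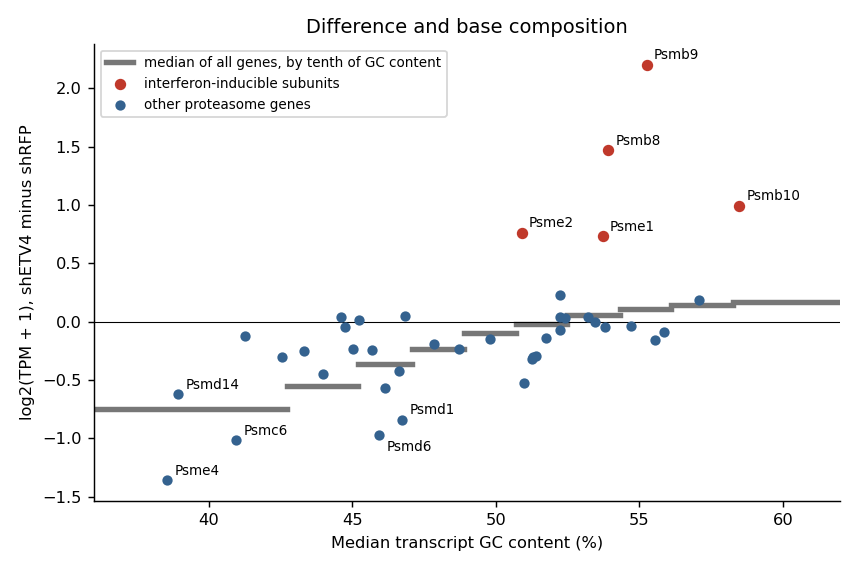
Difference in log2(TPM + 1), shETV4 minus shRFP, against median transcript GC content in percent for the 41 genes, with grey steps at the median of all genes in each of 10 equal GC bins. The 5 inducible genes lie above the steps, at 0.69 to 2.11 after adjustment, and Psme4, Psmc6, Psmd1 and Psmd6 lie below them.

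The inducible genes sit in gene clusters whose neighbours were looked at within 50 kb. Psmb9 (chromosome 17, 34181987 to 34187764, minus strand) and Psmb8 (34197721 to 34201454, plus strand) lie in the MHC region with Tap1 and Tap2, which encode the transporter that carries peptides into the endoplasmic reticulum. Tap1 was at 29.4 TPM with shETV4 and 6.35 TPM with shRFP, a difference of 2.05, and Tap2 was at 15.9 TPM with shETV4 and 9.19 TPM with shRFP. Psmb9 and Tap1 are transcribed away from each other, and their annotated exons in GENCODE overlap by 212 bases at the 5′ ends, 5.79% of the exonic bases of Psmb9. The strand setting of the counting is not known here, so reads from that stretch cannot be told apart. Exonic bases shared with other genes also made up 14.7% of Psmb8, 12.1% of Psmb5 and 11.8% of Psmb7. For Psmb6 and Psmb10 the share was 0%. The part of such bases in the ratios of the catalytic pairs was not tested. H2-DMa, a class II loading gene in the window, was at 5.19 TPM with shETV4 and 5.08 TPM with shRFP.

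Psme1 (chromosome 14, 55578123 to 55581529, plus strand) and Psme2 (55587441 to 55591113, minus strand) lie beside Irf9, the DNA-binding part of the interferon-activated complex ISGF3. Irf9 was at 66.9 TPM with shETV4 and 34.2 TPM with shRFP, a difference of 0.95. Rnf31, a ubiquitin ligase subunit whose start lies 0.595 kb from that of Psme2, was at 17.25 TPM with shETV4 and 10.20 TPM with shRFP. Emc9, between both activator genes, was at 5.98 TPM with shETV4 and 7.58 TPM with shRFP, so the positive difference did not extend to every gene of the stretch. Around Psmb10 (chromosome 8, 105935735 to 105938444, minus strand) the 3 expressed protein-coding neighbours were all within 2-fold, with a median of 0.25. They were Pskh1 at 0.62, Slc12a4 at 0.25 and Edc4 at 0.03.

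**Figure D5:**
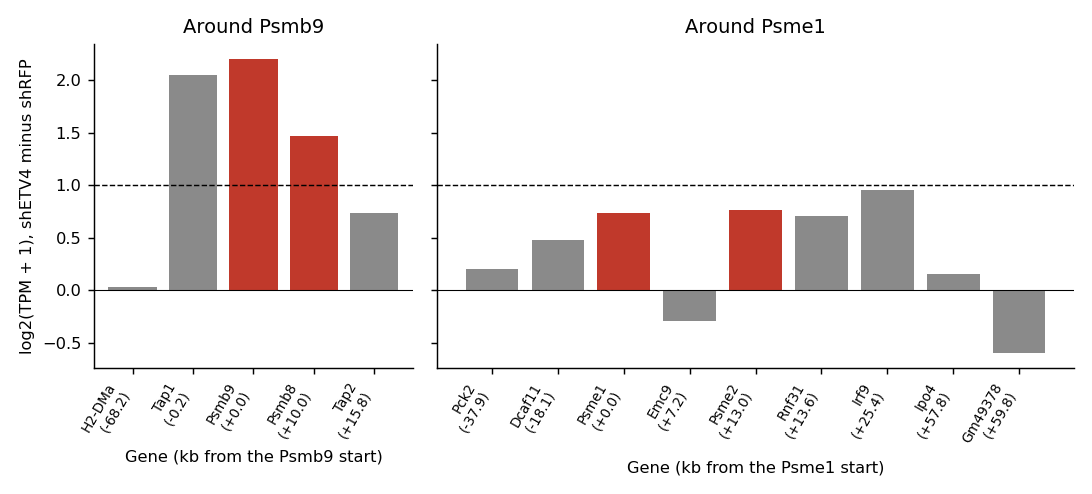
Difference in log2(TPM + 1), shETV4 minus shRFP, of expressed protein-coding genes within 50 kb of Psmb9 (left) and Psme1 (right), in chromosomal order with the distance between gene starts in kb in brackets; proteasome genes are red and the dashed line marks 2-fold. Psmb9, Tap1 and Psmb8 lie above 2-fold, and Psme1, Psme2, Rnf31 and Irf9 lie between 0.70 and 0.95.

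Promoter sequence was read for 35 of the 41 genes from RefSeq (GRCm38.p6), as the 250 bases before the annotated start, and searched on both strands for letters of 4 elements: CCGGAAG, a form of the site bound by ETS factors such as Etv4; GAAANNGAA, the core of the interferon-stimulated response element; TTCNNNGAA, the GAS element of interferon-responsive genes; and TGACNNNGC, the antioxidant response element bound by the NRF factors that drive proteasome genes. Matches of different elements did not overlap each other. A gene counted as having the letters if the window of any of its annotated starts matched. The ETS letters were found in 11 of 35 proteasome genes (31.4%), against 7.83% of all 27025 genes with a window. Among the 9195 expressed protein-coding ones the share was 16.5%. None of the inducible genes was among the 11. Those with the letters included the 3 members with the most negative differences before GC adjustment. After it, Psme4 was at -0.57, Psmc6 at -0.20 and Psmd6 at -0.59. Psmd1 (-0.84, or -0.50 after adjustment) and Psmd14 (-0.62, or 0.15) came next before adjustment and lacked the letters. The promoters of Psme4, Psmc6 and Psmd6 are shown here, with the matched letters in capitals. In each, 30 of the 120 bases lie in an exon of a GENCODE model.

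Psme4, chr11:30771636-30771755, plus strand: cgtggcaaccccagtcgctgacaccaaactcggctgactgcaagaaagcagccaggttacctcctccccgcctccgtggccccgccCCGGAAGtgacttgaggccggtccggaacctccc
Psmc6, chr14:45329698-45329817, plus strand: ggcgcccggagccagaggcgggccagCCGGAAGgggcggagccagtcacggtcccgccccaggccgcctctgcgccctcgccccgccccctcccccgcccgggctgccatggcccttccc
Psmd6, chr14:14120955-14121074, minus strand: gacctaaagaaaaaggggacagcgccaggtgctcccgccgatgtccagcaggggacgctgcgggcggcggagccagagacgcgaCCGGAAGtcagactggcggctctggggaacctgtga

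The 11 genes with the ETS letters had a median difference of -0.24 with 10 below 0, and the 24 without had a median of -0.06 with 13 below 0. The group without the letters holds all 5 inducible genes; leaving those out, the medians were -0.24 for the 11 with the letters and -0.14 for the 19 without, and -0.14 and 0.05 after adjustment for GC content. The genes with the letters were also poorer in GC, with a median of 45.9%, against 51.6% for those without. Over all 35 the adjusted medians were -0.14 with the letters and 0.09 without. Without the inducible genes, 13 of the 19 lacking the letters lay below 0. Among all 9195 expressed protein-coding genes the medians were -0.11 with the letters and -0.10 without. Of these, 924 of 1520 with the letters and 4462 of 7675 without lay below 0. A match is a description of the sequence; no binding was measured, and the part of the letters in the differences was not tested.

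The antioxidant response letters were found in 5 of the 35 (14.3%), against 11.5% of all genes with a window. Among the 9195 expressed protein-coding ones the share was 13.9%, near that of the proteasome genes. The 5 included 2 of the constitutive catalytic genes, Psmb5 and Psmb6. These are shown as the constitutive partners of Psmb8 and Psmb9, again with the matched letters in capitals.

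Psmb5, chr14:54617996-54618115, minus strand: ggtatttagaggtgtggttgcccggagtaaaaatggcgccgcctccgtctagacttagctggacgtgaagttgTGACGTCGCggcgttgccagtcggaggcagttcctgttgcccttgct
Psmb6, chr11:70525237-70525356, plus strand: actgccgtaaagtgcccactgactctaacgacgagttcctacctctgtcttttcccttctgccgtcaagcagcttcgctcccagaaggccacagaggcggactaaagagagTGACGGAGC

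The GAS letters were found in 1 of the 35, Psmb8, against 8.13% of all genes with a window. The match lies at -97 to -89 from the RefSeq start, inside an exon of a longer GENCODE model, so only the site itself is given, with the GAS letters in capitals.

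Psmb8, chr17:34198088-34198117, plus strand: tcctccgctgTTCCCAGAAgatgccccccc

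The interferon-stimulated response letters were found in Psmb3, Psmd4 and Psmd9, 3 of 35 against 8.18% of all genes with a window. These letters are not in the windows of the inducible genes. For Psmb8, all 250 bases of the window lie in exons of GENCODE models, so the sequence before the longer model was not searched.

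Genes that build, adjust or control the proteasome were described from lists. The core assembly chaperones Psmg1 to Psmg4, Pomp and the inhibitor Psmf1 gave 6 measured genes, none called, with a median of 0.11; Pomp, which completes both core types and is needed for immunoproteasome assembly, was at 398.02 TPM with shETV4 and 384.92 TPM with shRFP. Of 14 partners of the particle (ubiquitin shuttles, deubiquitinases and associated factors) none was called and 13 lay below 0, against 7560 of all 12968 genes. Their median was -0.32, or -0.14 after adjustment for GC content. The lowest were Ecpas, a scaffold of the particle, at 15.94 TPM with shETV4 and 30.98 TPM with shRFP, and the deubiquitinase Uchl5 at 25.22 TPM with shETV4 and 47.95 TPM with shRFP. Nfe2l1, the factor that raises proteasome gene transcription when the protease is inhibited, was at 147.44 TPM with shETV4 and 109.95 TPM with shRFP. Ngly1, the deglycosylase that helps activate it, was the 1 gene of 4 on that list called lower, against 7.06% of all genes. Ngly1 was at 6.39 TPM with shETV4 and 14.92 TPM with shRFP, and came inside 2-fold (-0.40) after adjustment. The testis subunit Psma8 and the thymus subunit Psmb11 stayed below 1 TPM in both libraries.

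The class I genes served by the immunoproteasome gave 3 of 11 called higher and none lower, against a background of 3.39% and 7.06% of all genes, with a median of 0.68. Besides Tap1 these were the heavy chain genes H2-K1, at 128.85 TPM with shETV4 and 46.57 TPM with shRFP, and H2-D1, at 323.28 TPM with shETV4 and 130.48 TPM with shRFP, close paralogs between which reads may have been split. Tapbp, the loading factor tapasin, was at 318.33 TPM with shETV4 and 163.58 TPM with shRFP. The chaperones Calr, Pdia3 and Canx, which serve glycoproteins generally, lay between -0.94 and 0.04. After adjustment for GC content Calr was at 0.11, Pdia3 at 0.07 and Canx at -0.27. Erap1, the aminopeptidase that trims peptides for class I molecules, was at 5.3 TPM with shETV4 and 8.51 TPM with shRFP, a difference of -0.59, or 0.02 after adjustment for GC content. Of the genes that carry the interferon signal to class I genes, Stat2, a part of ISGF3, was called higher, at 48.14 TPM with shETV4 and 19.26 TPM with shRFP. Nlrc5, the class I transactivator, was also called higher, at 9.91 TPM with shETV4 and 3.08 TPM with shRFP. Others on that list were negative: the kinases Jak1, at 26.9 TPM with shETV4 and 45.89 TPM with shRFP, and Jak2 differed by -0.75 and -0.31, and the receptor genes Ifngr1 and Ifnar1 by -0.29 and -0.14. None of these 4 was called, and Jak2 was at 0.22 after adjustment for GC content. The kinase Tyk2 and the receptor genes Ifngr2 and Ifnar2 were positive, at 0.68, 0.41 and 0.38, and were not called either. Irf1, known to activate Psmb9 in human cells, was at 76.35 TPM with shETV4 and 55.71 TPM with shRFP, within 2-fold.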

How the data were processed

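Total RNA of 2 libraries, 1 per group, was made into TruSeq libraries, per the labels' protocols; the group was taken from the treatment label. The authors deposited 1 TPM value per gene and library; the unit was read from the library totals. HISAT2, RSEM and GRCm38.p4 are named in the submitters' processing notes without role or version. TPM keeps no depth, so depth and counting error are unknown. The sources used here give neither annotation release nor strand setting.

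Differences are log2(TPM + 1), shETV4 minus shRFP (pseudocount 1), for genes reaching 1 TPM with either hairpin, called at 2-fold. GENCODE M21 (GRCm38) matched 99.5% of named records by gene ID and gave positions, GC content and length; copies were sought with BLAST+ 2.17.0. The 5 inducible and 3 constitutive catalytic genes are described in full, the others by class with called and extreme members. Some items of the interferon and marker lists are not reported here. Members and lists were chosen with earlier results of these data known. Alternatives changed pseudocount, filter, scale, threshold and gene set, or subtracted the running median over 50 GC bins. The code for calls and GC adjustment was tested on simulated data, which does not bear on how reliable the calls are. Python 3.11.15, numpy 2.4.6, pandas 2.3.3 and matplotlib 3.10.9 were used.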

Additional observations from a re-analysis of the deposited data

How the results depend on the processing

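No paired analysis was possible because each group has 1 library, and no library could be left out. All 5 inducible genes kept a positive difference under every pseudocount, filter, scale and GC setting tried; 26 of the 41 genes kept 1 sign. Members called higher numbered 5 at 1.5-fold and 1 at 3-fold. Members called lower numbered 1 with pseudocount 5, 1 on either rescaling, 5 at 1.5-fold, 0 at 3-fold and 0 with GC adjustment. With the trimmed mean set to 0 (it was -0.13, so differences moved up), the medians were -0.0054 over all 41, 1.12 for the inducible, 0.17 for the constitutive catalytic and -0.10 for the remaining genes. With GC adjustment they were 0.00664 over all 41, 0.85 for the inducible and -0.0671 for the remaining genes. The Psmb9 over Psmb6 ratio of ratios was 2.19 with an offset of 5 TPM. Over all genes, calls higher numbered 439 and lower 916; they were 674 and 1459 with pseudocount 0.1, 167 and 267 with pseudocount 5, 1117 and 2591 at 1.5-fold and 162 and 162 at 3-fold. Calls higher were 252 at 5 TPM and 250 for protein-coding genes, and calls lower 299 with GC adjustment. The cause of these shifts was not tested. Read depth is unknown, so the counting error of each value is unknown too.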
